A study of Homo sapiens with 6 samples.

Results

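Mitochondrial ribosomal proteins were described in 95D cells, an established human lung cancer line (genotype labelled WT), deprived of glutamine or of glucose. The members are the genes whose symbol is MRPL or MRPS followed by a number and, at most, a letter from A to C: 78 of the 59609 gene names in the deposited tables, 49 with a large subunit symbol (MRPL) and 29 with a small subunit symbol (MRPS). RNA came from cells kept for 48 h in glutamine-free DMEM (1 library used here), in glucose-free DMEM (2 libraries) or in complete DMEM as control (2 libraries). All had first been plated for 24 h in complete medium. Both deprivation media carried 10% dialyzed serum, which the protocols do not mention for complete DMEM, so a change of serum cannot be told apart from either deprivation when a deprived library is set against a control. In the comparison of the 2 deprivations the serum is the same on both sides. The labels do not tell whether replicates were grown apart, so the p-values rest on the spread between the samples at hand, and that spread may be technical. With 1 library, the spread of the glutamine-deprived group was taken to equal that of the others.

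The mitochondrial ribosome translates the few mRNAs encoded in mitochondrial DNA, all for proteins of the oxidative phosphorylation system. Its rRNAs are transcribed inside the organelle, while every one of its proteins is encoded in the nucleus, made in the cytosol and imported. The small subunit decodes the mRNA. The large subunit joins amino acids and feeds the chain into the inner membrane. Some of its proteins have counterparts in all ribosomes, some only in bacteria, and others exist only in mitochondria. Glucose feeds glycolysis and, through pyruvate, the citric acid cycle, and glutamine enters that cycle as glutamate and then 2-oxoglutarate.

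The promoters of 7 members on whose mRNA levels the results turn are shown first, each as 300 bases, 250 before and 50 after the annotated start, 5′ to 3′ on the strand of the gene (RefSeq, GRCh38.p14). Capitals mark the letters of 5 motifs, each searched on both strands: the NRF1 motif (as GCGCCTGCGC in MRPL36, with any base in the fifth place), the ETS motif CCGGAAG bound by GABPA, the YY1 motif (the last run of capitals in MRPL36, read on the opposite strand), the E-box CACGTG and the C/EBP-ATF motif TGATGNAA. The first 3 promoters belong to the members that were at least 2-fold lower without glucose on the log2(FPKM + 1) scale, MRPL12 (chr17:81703117-81703416, plus strand), MRPS12 (chr19:38930694-38930993, plus strand) and MRPS17 (chr7:55951627-55951926, plus strand). MRPL36 (chr5:1799788-1800087, minus strand) was low in both deprivations. MRPS18C (chr4:83455808-83456107, plus strand) was the member at least 2-fold lower without glutamine. MRPL32 (chr7:42932126-42932425, plus strand) was lower without glutamine than in either other medium, and MRPL45 (chr17:38296918-38297217, plus strand) was higher without glucose.

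MRPL12: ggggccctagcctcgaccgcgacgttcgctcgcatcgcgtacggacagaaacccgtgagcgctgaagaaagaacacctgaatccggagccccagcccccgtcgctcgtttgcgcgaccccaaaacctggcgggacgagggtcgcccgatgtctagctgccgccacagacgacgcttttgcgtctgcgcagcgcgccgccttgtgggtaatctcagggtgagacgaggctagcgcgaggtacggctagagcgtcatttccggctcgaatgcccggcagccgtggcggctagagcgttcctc

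MRPS12: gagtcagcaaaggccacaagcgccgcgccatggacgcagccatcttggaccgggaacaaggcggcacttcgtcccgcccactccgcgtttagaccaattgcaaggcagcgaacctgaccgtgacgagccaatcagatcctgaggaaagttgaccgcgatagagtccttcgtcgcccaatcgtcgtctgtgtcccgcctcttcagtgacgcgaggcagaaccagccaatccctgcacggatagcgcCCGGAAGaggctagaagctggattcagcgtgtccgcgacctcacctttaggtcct

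MRPS17: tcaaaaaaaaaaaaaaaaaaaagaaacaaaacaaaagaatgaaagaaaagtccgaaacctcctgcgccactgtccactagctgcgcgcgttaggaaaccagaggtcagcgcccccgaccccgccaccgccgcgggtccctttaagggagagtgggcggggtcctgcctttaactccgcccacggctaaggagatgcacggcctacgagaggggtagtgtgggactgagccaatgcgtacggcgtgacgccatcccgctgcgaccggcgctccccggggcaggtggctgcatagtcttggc

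MRPL36: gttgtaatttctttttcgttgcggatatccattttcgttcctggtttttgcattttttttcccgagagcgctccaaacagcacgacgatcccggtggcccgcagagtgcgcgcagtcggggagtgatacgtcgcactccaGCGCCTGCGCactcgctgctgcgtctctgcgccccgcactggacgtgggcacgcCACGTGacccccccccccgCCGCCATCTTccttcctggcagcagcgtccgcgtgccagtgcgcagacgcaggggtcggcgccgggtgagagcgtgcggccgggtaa

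MRPS18C: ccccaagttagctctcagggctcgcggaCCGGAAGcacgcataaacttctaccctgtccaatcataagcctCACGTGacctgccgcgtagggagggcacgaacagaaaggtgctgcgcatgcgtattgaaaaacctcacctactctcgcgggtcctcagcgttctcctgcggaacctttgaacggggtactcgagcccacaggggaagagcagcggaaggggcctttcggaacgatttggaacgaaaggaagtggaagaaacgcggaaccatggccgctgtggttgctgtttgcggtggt

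MRPL32: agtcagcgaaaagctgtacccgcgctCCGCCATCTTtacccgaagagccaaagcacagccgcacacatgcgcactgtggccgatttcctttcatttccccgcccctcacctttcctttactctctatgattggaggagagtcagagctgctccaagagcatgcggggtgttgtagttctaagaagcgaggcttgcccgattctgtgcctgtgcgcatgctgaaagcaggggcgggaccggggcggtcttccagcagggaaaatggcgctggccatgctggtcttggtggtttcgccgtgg

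MRPL45: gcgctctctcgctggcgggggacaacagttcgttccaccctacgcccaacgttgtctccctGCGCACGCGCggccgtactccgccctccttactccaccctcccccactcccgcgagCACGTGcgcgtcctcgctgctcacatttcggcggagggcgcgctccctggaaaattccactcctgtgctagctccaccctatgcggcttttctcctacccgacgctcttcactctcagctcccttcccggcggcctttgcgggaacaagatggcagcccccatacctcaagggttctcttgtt

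The MRPL36 window held an NRF1, an E-box and a YY1 match, the MRPL45 window an NRF1 and an E-box match, and the MRPS18C window an ETS and an E-box match. MRPS12 held an ETS match and MRPL32 a YY1 match, while none of the 5 motifs was found in the windows of MRPL12 and MRPS17. Of the 69 members with a window in the RefSeq table, 42.0% held the ETS letters, against 20.1% of the 9832 windows of genes tested here and 10.7% of all 27305 windows. The YY1 letters stood in 18.8% of member windows, 3.0% of tested windows and 1.3% of all windows. The shares were 11.6%, 12.4% and 6.3% for NRF1, 8.7%, 10.5% and 7.4% for the E-box, and 1.4%, 1.6% and 3.7% for C/EBP-ATF. A match describes letters in the window and is not evidence of binding.

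All values are FPKM, fragments normalised to transcript length and to the mapped fragments of a library, divided by a scaling factor per library. The inferred depth was 34530000 reads without glutamine, 35130000 to 36850000 without glucose and 35470000 to 48930000 in the controls. All 78 members passed the filter of at least 1 FPKM in 1 or more libraries, with levels of 3.79 to 104.1 FPKM and about 415 to 11637 inferred reads per library (median 1862), so counting error was about 4.91% at the lowest and 2.32% at the median. Of the markers set for the label, 4 of 4 mesenchymal genes, 2 of 5 epithelial genes (KRT8 and KRT18) and 1 of 5 lung genes (NKX2-1) reached 1 FPKM in some library, while EPCAM and CDH1 stayed under 0.25 FPKM and KRT19, SFTPB and SCGB1A1 were listed at 0. Of 6 markers of blood, endothelial, stromal and liver cells, COL1A1 alone reached 1 FPKM, at 1.83 FPKM without glutamine, 0.384 and 0.388 FPKM without glucose and 0.642 and 0.574 FPKM in the controls, and CD3E was listed at 0. In bulk RNA, fewer cells of a kind and less RNA per cell cannot be told apart.

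Most mitochondrial ribosomal protein mRNAs were lower in both deprivations than in complete medium. The FPKM of the 78 members summed to 1545 without glutamine, 1737 and 1788 without glucose and 2350 and 2348 in the controls. The 3 deprived libraries thus lay below both controls, and the glutamine-deprived library was the lowest. Set against the mean of the controls gene by gene, the median log2 ratio of large subunit members was -0.62 without glutamine and -0.47 and -0.42 without glucose, and for small subunit members it was -0.57 without glutamine and -0.31 and -0.36 without glucose. In the glutamine-deprived library 78 of 78 members were below the control mean, as were 67 and 68 of them in the glucose-deprived libraries. This count was not made over all genes tested. For 41.6% of all genes tested the glutamine-deprived library lay below both controls, and for 38% both glucose-deprived libraries did.

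**Figure D1:**
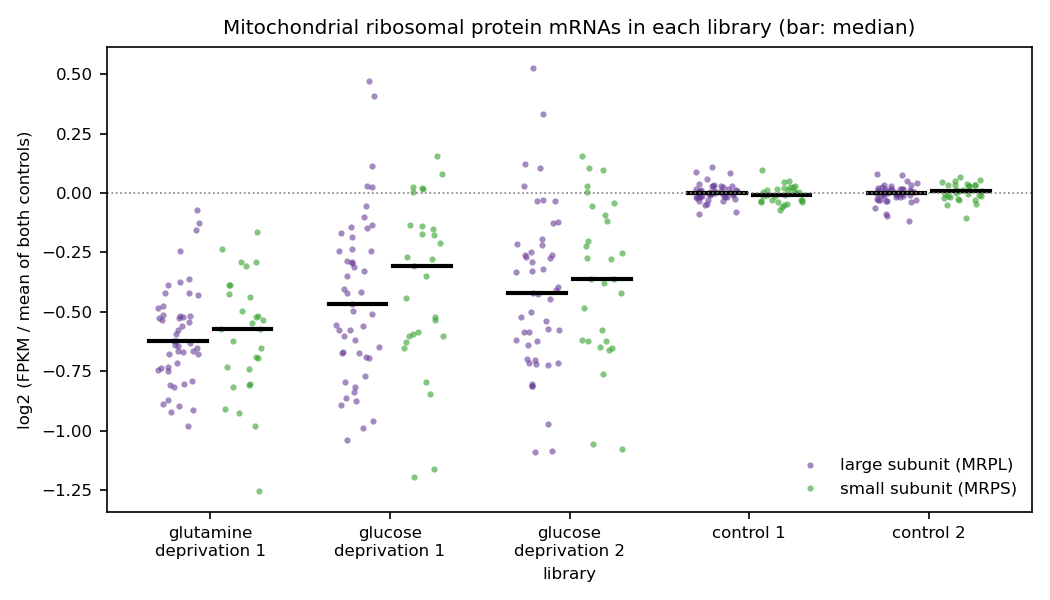
Each point is 1 member in 1 library, as the log2 ratio of its FPKM to the mean of both controls (y axis), with large subunit members on the left and small subunit members on the right within each library, and black bars at the medians. The glutamine-deprived points run from -1.25 to -0.07 and the glucose-deprived points from -1.20 to 0.53, while the controls stay between -0.12 and 0.11.

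Without glucose, 60 of 78 members fell (76.9%) and 2 rose (2.56%), MRPL10 and MRPL45, at a limma adjusted p under 0.05. Among all 16600 genes tested 28.3% fell and 26.6% rose. Among the 4472 genes that, like 68 of the members, averaged at least 10 FPKM, 52.5% fell and 21.5% rose. The median log2 fold change was -0.38 over the members, 0.03 over all genes tested and -0.16 over the genes at 10 FPKM or more. Both glucose-deprived libraries lay below both controls for 67 members, which was the case for 38% of genes tested, and above both for 7 members, against 40.3% of genes tested.

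Without glutamine, 73 members fell (93.6%) and 0 rose by limma's adjusted p, where 26.4% of all genes tested fell and 24.7% rose. Of the genes at 10 FPKM or more, 64.7% fell and 10.7% rose. The fitted log2 fold changes of all 78 were negative, so none passed as higher at an unadjusted p under 0.05 either. Their median was -0.56, against 0.05 over all genes tested and -0.31 over the genes at 10 FPKM or more. The 5 members that did not pass were MRPL10, MRPL34, MRPL45, MRPS25 and MRPS6, of which MRPS25 and MRPS6 are named after their values were seen. The glutamine-deprived library lay below both controls for 77 of 78 members, as it did for 41.6% of genes tested, and above both for none, against 49.3%.

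Both comparisons use the same 2 control libraries, so their calls are not independent of each other, and the values of a member in each are given side by side.

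**Figure D2:**
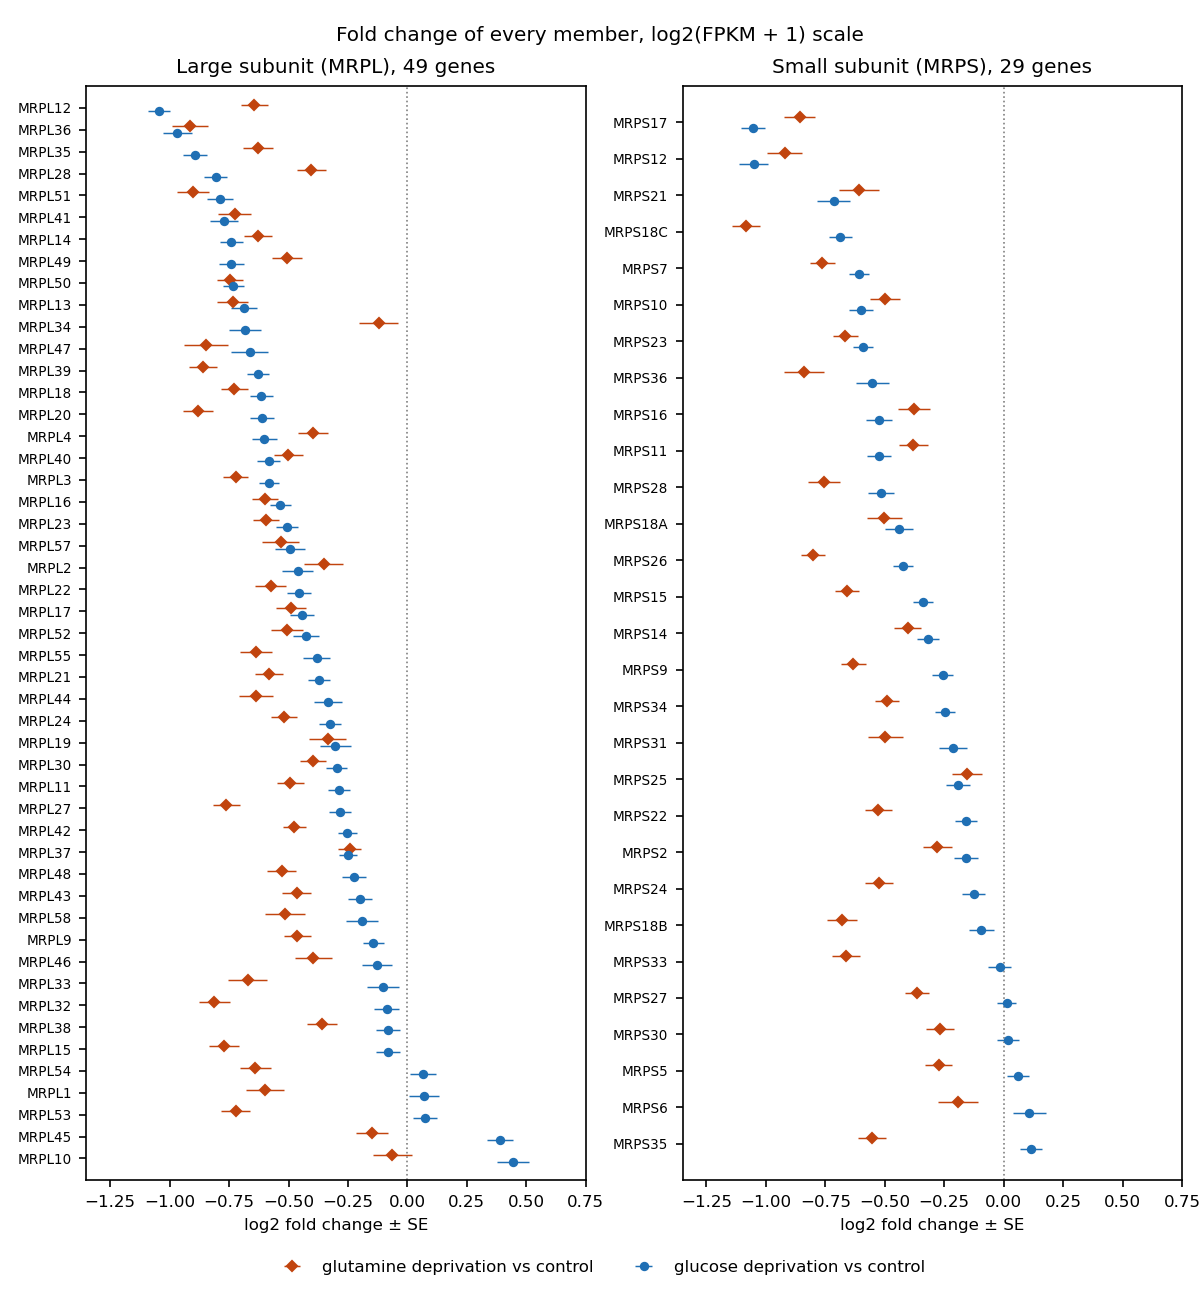
The log2 fold change of each member on the log2(FPKM + 1) scale, with its standard error as a bar, for glutamine deprivation against control (diamonds) and glucose deprivation against control (circles), large subunit at left and small subunit at right. Members are ordered by the value without glucose, from -1.04 for MRPL12 to 0.44 for MRPL10 and from -1.05 for MRPS17 to 0.12 for MRPS35, and every diamond lies below 0.

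Set directly against glucose deprivation (log2 fold changes as glutamine over glucose deprivation), glutamine deprivation left 41 members lower (52.6%) and 7 higher (8.97%), where 22.1% of all genes tested were lower and 22.5% higher. Among genes at 10 FPKM or more 43.8% were lower and 18.2% higher. The median log2 fold change was -0.20 over the members, 0.02 over all genes tested and -0.13 over the genes at 10 FPKM or more. The 7 higher members were MRPL4, MRPL12, MRPL28, MRPL34, MRPL35, MRPL49 and MRPS17, of which MRPL4 is named after its values were seen. The glutamine-deprived library lay below both glucose-deprived libraries for 54 members, against 41.9% of genes tested, and above both for 15, against 44.6%. With no filter on low genes 25 members passed as lower and 2 as higher, and of the members described below MRPL10, MRPL11, MRPL20, MRPL34, MRPL35, MRPL44, MRPL49, MRPL58, MRPS17, MRPS28, MRPS30 and MRPS36 lost their call between the deprivations. With either control library left out 4 passed as higher, the lower count being 31.

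The split of calls depended on the scaling between libraries. Of all genes called, those higher were 48.5% without glucose, 48.4% without glutamine and 50.5% between the deprivations. Scaled to the sum of all values without mitochondrially encoded genes, the share was 67.9% without glucose, 92.1% without glutamine and 87.3% between the deprivations. The median of all genes moved to a log2 fold change of 0.11 without glucose, 0.31 without glutamine and 0.20 between the deprivations. For glutamine deprivation against control the share was 67.4% with values as deposited and 63.2% with upper quartile scaling. Between the deprivations it was 68.1% with values as deposited. Under the sum scaling 34 members passed as lower and 2 as higher without glucose, 17 as lower and 0 as higher without glutamine, and 5 as lower and 4 as higher between the deprivations. The members' median then was -0.27 without glucose, -0.25 without glutamine and 0.01 between the deprivations, each below that of all genes under the same scaling. Of the named members that had passed, MRPL37 (0.087) and MRPS30 (0.042) without glutamine and MRPL11 (0.005) between the deprivations turned sign under it. Of the members described below, 17 lost their call without glutamine under this scaling: MRPL11, MRPL12, MRPL28, MRPL35, MRPL37, MRPL44, MRPL49, MRPL53, MRPL54, MRPL57, MRPL58, MRPS18A, MRPS18B, MRPS22, MRPS27, MRPS30 and MRPS35. Without glucose 6 lost it, namely MRPL11, MRPL37, MRPL44, MRPL58, MRPS18A and MRPS22. Between the deprivations 16 lost it, namely MRPL10, MRPL11, MRPL20, MRPL44, MRPL45, MRPL49, MRPL58, MRPS17, MRPS18B, MRPS18C, MRPS22, MRPS27, MRPS28, MRPS30, MRPS35 and MRPS36. Values as deposited and upper quartile scaling each lost the calls of MRPL58 and MRPS22 without glucose and of MRPL37 and MRPS30 without glutamine. With both, MRPS35 passed as higher without glucose, as did MRPL53 and MRPL54 with upper quartile scaling. In each library 5 short noncoding RNAs (RN7SK, RN7SL1, AL162581.1, RPPH1 and RN7SL2) held 46.3% to 52.1% of the summed FPKM.

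The stalk of the large subunit recruits translation factors. MRPL12, its mobile arm, which is also known to bind the mitochondrial RNA polymerase, stood at 52.3 FPKM in the glutamine-deprived library, 40.1 and 38.8 FPKM in the glucose-deprived libraries and 84.01 and 80.5 FPKM in the controls. Every deprived library was below both controls, and the glucose-deprived ones were lowest. MRPL12 fell, with a log2 fold change of -0.64 ± 0.06 (adjusted p = 8.49e-05) without glutamine and -1.04 ± 0.05 (adjusted p = 5.18e-06) without glucose, and its level without glutamine was higher than without glucose by 0.40 ± 0.06 (adjusted p = 0.00107) (values with SE, adjusted p by limma, as for all members below). Under the sum scaling the value of MRPL12 without glutamine was -0.315 and did not pass (adjusted p = 0.166). A readthrough transcript, AC139530.2, shares 68.19% of the exon length of MRPL12 on the same strand and stood at 23.5 FPKM without glutamine, 17.0 and 18.0 FPKM without glucose and 34.9 and 34.3 FPKM in the controls, so the split of reads between them is uncertain.

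MRPL10, which anchors MRPL12 in the stalk, had 13.8 FPKM without glutamine, 19.3 and 20.9 FPKM without glucose and 15.4 and 13.7 FPKM in control medium. Its glucose-deprived libraries were above all others, and the glutamine-deprived library lay between the controls. The log2 fold change was -0.06 ± 0.08 (adjusted p = 0.537) without glutamine and 0.44 ± 0.07 (adjusted p = 0.000854) without glucose, the last call lost with no filter on low genes (adjusted p = 0.0607). Between the deprivations it was -0.51 ± 0.08 (adjusted p = 0.00183), a call lost with no filter (adjusted p = 0.0687) and under the sum scaling (-0.301, adjusted p = 0.217). MRPL11, at the stalk base, had 17.9 FPKM without glutamine, 20.4 and 21.2 FPKM without glucose and 25.4 and 25.8 FPKM in control medium. It fell in both, with a log2 fold change of -0.49 ± 0.06 (adjusted p = 0.000248) without glutamine and -0.29 ± 0.05 (adjusted p = 0.00114) without glucose, so the arm of the stalk and its anchor moved in opposite directions without glucose.

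Among small subunit proteins with counterparts in all ribosomes, MRPS12, which lies at the decoding centre, had 10.96 FPKM without glutamine, 9.45 and 10.4 FPKM without glucose and 22.1 and 21.2 FPKM in control medium. MRPS17, an rRNA-binding protein of the small subunit core, had 13.1 FPKM without glutamine, 11.02 and 11.7 FPKM without glucose and 25.1 and 24.2 FPKM in control medium. In both genes the deprived libraries were all far below the controls and did not overlap them. The log2 fold change of MRPS12 was -0.92 ± 0.07 (adjusted p = 5.86e-05) without glutamine and -1.05 ± 0.06 (adjusted p = 1.09e-05) without glucose, and that of MRPS17 was -0.86 ± 0.06 (adjusted p = 4.75e-05) without glutamine and -1.05 ± 0.05 (adjusted p = 7.16e-06) without glucose. Between the deprivations MRPS17 was higher without glutamine by 0.20 ± 0.06 (adjusted p = 0.0389), which did not pass with either control library left out (adjusted p = 0.104 and 0.105) nor without glucose-deprived replicate 1 (0.111), and MRPS12 did not pass (adjusted p = 0.182). Of the exon length of MRPS17, 27% is shared on the same strand with NIPSNAP2 and AC092647.5, so the split of reads is uncertain. AC092647.5 stood at 7.58 FPKM without glutamine, 5.79 and 6.70 FPKM without glucose and 13.9 and 13.05 FPKM in the controls. NIPSNAP2 stood at 12.97 FPKM without glutamine, 13.6 and 13.8 FPKM without glucose and 16.02 and 15.6 FPKM in the controls. Of the exon length of MRPS12, 16.28% lies opposite SARS2. SARS2 stood at 9.75 FPKM without glutamine, 11.7 and 12.9 FPKM without glucose and 10.1 FPKM in each control.

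Human cells have 3 paralogs of bacterial ribosomal protein S18, of which MRPS18B and MRPS18C sit in the small subunit and MRPS18A in the large one. MRPS18C had 4.24 FPKM without glutamine, 5.83 and 5.96 FPKM without glucose and 10.02 and 10.2 FPKM in control medium. Its libraries separated by medium, lowest without glutamine, and the log2 fold change was -1.08 ± 0.06 (adjusted p = 2.35e-05) without glutamine, -0.69 ± 0.05 (adjusted p = 2.36e-05) without glucose and -0.40 ± 0.06 (adjusted p = 0.00125) between the deprivations. Of its exon length 40.2% lies opposite ABRAXAS1, which stood at 2.71 FPKM without glutamine, 5.19 and 5.20 FPKM without glucose and 2.95 and 2.82 FPKM in the controls, and without a stated strand setting reads of the pair cannot be told apart. MRPS18B, the most abundant of the paralogs, had 33.8 FPKM without glutamine, 49.3 and 53.05 FPKM without glucose and 53.2 and 56.1 FPKM in control medium. The glutamine-deprived library was far below the others, with -0.68 ± 0.06 (adjusted p = 0.000106) without glutamine, -0.09 ± 0.05 (adjusted p = 0.158) without glucose and -0.58 ± 0.06 (adjusted p = 0.000336) between the deprivations. MRPS18A had 25.8 FPKM without glutamine, 25.6 and 28.4 FPKM without glucose and 36.8 and 37.3 FPKM in control medium, with both deprivations below the controls and no separation between them. Its log2 fold change was -0.50 ± 0.07 (adjusted p = 0.000817) without glutamine and -0.44 ± 0.06 (adjusted p = 0.000487) without glucose.

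**Figure D3:**
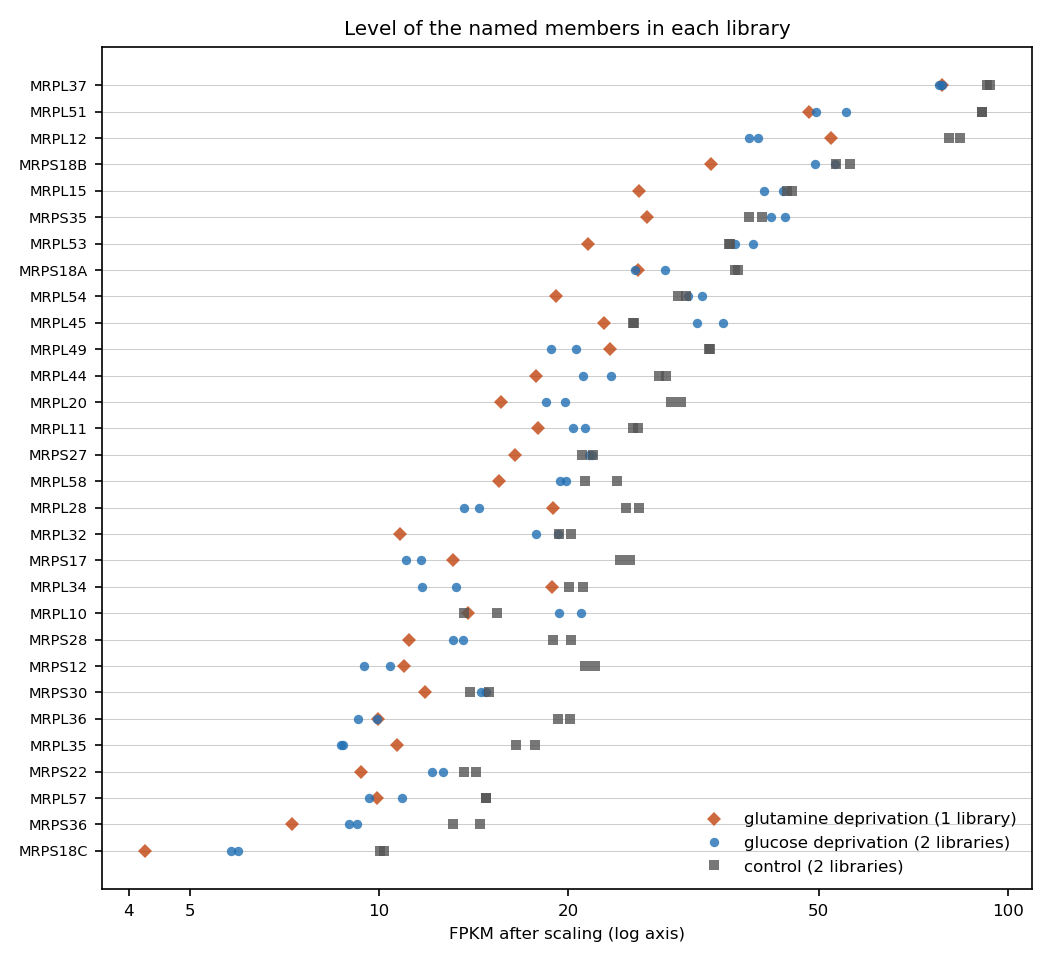
FPKM after scaling of the 30 named members (x axis, log) in each library, with diamonds for the glutamine-deprived library, circles for both glucose-deprived libraries and squares for both controls. MRPS18C separates into 3 groups, MRPS12 and MRPS17 have both deprivations far left of the controls, MRPL53 and MRPS35 are low in the glutamine-deprived library, and MRPL10 and MRPL45 are highest in the glucose-deprived libraries.

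Of the 14 large subunit proteins with bacterial counterparts only, 7 were lower (50%) and 4 higher (28.6%) without glutamine than without glucose (median -0.13). Among genes at 10 FPKM or more 43.8% were lower and 18.2% higher, and among all genes tested 22.1% and 22.5%. The 4 higher ones were MRPL12, MRPL28, MRPL34 and MRPL35. MRPL35 had 10.7 FPKM without glutamine, 8.78 and 8.71 FPKM without glucose and 16.5 and 17.7 FPKM in control medium. MRPL28 had 18.9 FPKM without glutamine, 13.6 and 14.4 FPKM without glucose and 25.9 and 24.7 FPKM in control medium. In both genes the glutamine-deprived library lay between the other groups without overlap. MRPL35 fell, with a log2 fold change of -0.63 ± 0.06 (adjusted p = 0.000131) without glutamine and -0.89 ± 0.05 (adjusted p = 1.10e-05) without glucose, and differed between the deprivations by 0.26 ± 0.06 (adjusted p = 0.0102), which was lost without glucose-deprived replicate 2 (adjusted p = 0.0514). MRPL28 fell, with a log2 fold change of -0.40 ± 0.06 (adjusted p = 0.000981) without glutamine and -0.81 ± 0.05 (adjusted p = 1.45e-05) without glucose, and differed between the deprivations by 0.40 ± 0.06 (adjusted p = 0.00135). MRPL34 had 18.9 FPKM without glutamine, 11.7 and 13.2 FPKM without glucose and 21.1 and 20.1 FPKM in control medium, with the glutamine-deprived library close below the controls and the glucose-deprived ones far below. It did not pass without glutamine (-0.12 ± 0.08, adjusted p = 0.253), fell without glucose (-0.68 ± 0.07, adjusted p = 0.000109), and had the largest positive difference between the deprivations among the members (0.56 ± 0.08, adjusted p = 0.0012), a call lost with no filter (adjusted p = 0.0517).

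MRPL36, a small zinc-binding protein known from bacteria, had 9.98 FPKM without glutamine, 9.91 and 9.25 FPKM without glucose and 20.1 and 19.3 FPKM in control medium. The deprived libraries lay together below both controls, with a log2 fold change of -0.91 ± 0.07 (adjusted p = 6.81e-05) without glutamine, -0.97 ± 0.06 (adjusted p = 1.64e-05) without glucose and 0.05 ± 0.07 (adjusted p = 0.6) between them. MRPL20, whose bacterial counterpart is needed to assemble the large subunit, had 15.7 FPKM without glutamine, 18.4 and 19.8 FPKM without glucose and 29.1 and 30.2 FPKM in control medium. It was ordered by medium, lowest without glutamine, and fell, with a log2 fold change of -0.88 ± 0.06 (adjusted p = 4.11e-05) without glutamine and -0.61 ± 0.05 (adjusted p = 4.80e-05) without glucose.

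Other large subunit members were low in the glutamine-deprived library and near the controls without glucose. MRPL32, whose precursor is cut by the m-AAA protease before it joins the ribosome, had 10.8 FPKM without glutamine, 17.8 and 19.3 FPKM without glucose and 20.2 and 19.3 FPKM in control medium. Its glutamine-deprived value was below all others, and the glucose-deprived and control values nearly met. The log2 fold change was -0.81 ± 0.07 (adjusted p = 6.05e-05) without glutamine, -0.09 ± 0.05 (adjusted p = 0.2) without glucose and -0.73 ± 0.07 (adjusted p = 0.000154) between the deprivations. MRPL15, a universal protein of the large subunit, had 25.9 FPKM without glutamine, 40.9 and 43.96 FPKM without glucose and 44.6 and 45.3 FPKM in control medium, again with the glutamine-deprived library alone at the bottom. Its values were -0.77 ± 0.06 (adjusted p = 6.70e-05) without glutamine, -0.08 ± 0.05 (adjusted p = 0.211) without glucose and -0.69 ± 0.06 (adjusted p = 0.000175) between the deprivations.

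Among large subunit proteins found only in mitochondria, MRPL45 faces the inner membrane at the exit of the nascent chain. It had 22.8 FPKM without glutamine, 35.2 and 32.01 FPKM without glucose and 25.5 and 25.3 FPKM in control medium. The glucose-deprived libraries were the highest and the glutamine-deprived library the lowest, close under the controls. The log2 fold change was -0.15 ± 0.07 (adjusted p = 0.1) without glutamine, 0.39 ± 0.06 (adjusted p = 0.000666) without glucose and -0.54 ± 0.07 (adjusted p = 0.000629) between the deprivations. The pseudogene MRPL45P2, which can share its reads, stood at 3.40 FPKM without glutamine, 4.32 and 4.04 FPKM without glucose and 2.72 and 2.38 FPKM in the controls in the values as deposited. MRPL53 had 21.5 FPKM without glutamine, 36.8 and 39.4 FPKM without glucose and 36.1 and 36.2 FPKM in control medium. MRPL54 had 19.1 FPKM without glutamine, 30.9 and 32.7 FPKM without glucose and 29.9 and 30.7 FPKM in control medium. Both were low in the glutamine-deprived library alone. With upper quartile scaling both passed as higher without glucose, MRPL53 at 0.149 (adjusted p = 0.0353) and MRPL54 at 0.142 (adjusted p = 0.0497). MRPL53 had the largest negative difference between the deprivations among the members, -0.80 ± 0.06 (adjusted p = 9.60e-05), with -0.72 ± 0.06 (adjusted p = 7.84e-05) without glutamine and 0.07 ± 0.05 (adjusted p = 0.258) without glucose, and 45.24% of its exon length overlaps CCDC142. MRPL54 had -0.71 ± 0.07 (adjusted p = 0.000185) between the deprivations, -0.64 ± 0.07 (adjusted p = 0.000158) without glutamine and 0.07 ± 0.05 (adjusted p = 0.329) without glucose.

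MRPL51 had 48.3 FPKM without glutamine, 49.6 and 55.2 FPKM without glucose and 91.1 and 90.99 FPKM in control medium, and the deprived libraries lay together far below the controls. It fell, with a log2 fold change of -0.90 ± 0.07 (adjusted p = 4.99e-05) without glutamine and -0.79 ± 0.06 (adjusted p = 2.47e-05) without glucose, and 31.33% of its exon length lies opposite NCAPD2. MRPL49 had 23.3 FPKM without glutamine, 18.7 and 20.6 FPKM without glucose and 33.4 and 33.5 FPKM in control medium and was lowest without glucose. FAU stood at 116.1 FPKM without glutamine, 155.5 and 170.1 FPKM without glucose and 180.7 and 171.1 FPKM in the controls. SYVN1 stood at 5.515 FPKM without glutamine, 5.01 and 4.619 FPKM without glucose and 2.61 and 2.434 FPKM in the controls. Both lie opposite MRPL49, over 12.18% of its exon length, and no strand setting is stated to separate their reads from those of MRPL49. Its log2 fold change was -0.51 ± 0.06 (adjusted p = 0.000409) without glutamine, -0.74 ± 0.05 (adjusted p = 2.44e-05) without glucose and 0.23 ± 0.06 (adjusted p = 0.0185) between the deprivations, the last lost without either control library (adjusted p = 0.0798 and 0.082). MRPL37, one of the most abundant members, had 78.5 FPKM without glutamine, 78.6 and 77.7 FPKM without glucose and 93.5 and 92.7 FPKM in control medium. The deprived libraries were within 1 FPKM of each other and all below the controls, with -0.24 ± 0.05 (adjusted p = 0.00362) without glutamine and -0.25 ± 0.04 (adjusted p = 0.00103) without glucose.

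MRPL44, which carries a ribonuclease III-like fold, had 17.8 FPKM without glutamine, 21.1 and 23.3 FPKM without glucose and 28.6 and 27.8 FPKM in control medium, ordered by medium with no overlap. It fell, with a log2 fold change of -0.64 ± 0.07 (adjusted p = 0.000234) without glutamine and -0.33 ± 0.06 (adjusted p = 0.00188) without glucose. Between the deprivations its value was -0.31 ± 0.07, a call lost with either control library left out. MRPL58, also called ICT1, a peptidyl-tRNA hydrolase built into the ribosome, had 15.5 FPKM without glutamine, 19.9 and 19.4 FPKM without glucose and 21.3 and 23.9 FPKM in control medium. It fell, with a log2 fold change of -0.51 ± 0.08 (adjusted p = 0.00139) without glutamine. Its call without glucose (-0.19 ± 0.07, adjusted p = 0.0435) was lost without control replicate 2 (adjusted p = 0.246), without glucose-deprived replicate 1 (0.128) and without glucose-deprived replicate 2 (0.181). MRPL57 had 9.93 FPKM without glutamine, 9.64 and 10.9 FPKM without glucose and 14.8 and 14.8 FPKM in control medium and fell in both, with a log2 fold change of -0.53 ± 0.08 (adjusted p = 0.000902) without glutamine and -0.49 ± 0.06 (adjusted p = 0.000421) without glucose, with a difference of -0.04 ± 0.08 (adjusted p = 0.717) between them.

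In the small subunit, MRPS28, a protein with a bacterial counterpart, had 11.2 FPKM without glutamine, 13.6 and 13.1 FPKM without glucose and 20.2 and 18.9 FPKM in control medium. MRPS22, found only in mitochondria, had 9.37 FPKM without glutamine, 12.7 and 12.1 FPKM without glucose and 13.6 and 14.2 FPKM in control medium. Both genes were lowest without glutamine and highest in the controls. Of the exon length of MRPS28, 35.77% is shared on the same strand with AC036214.3, so the split of reads between them is uncertain. AC036214.3 stood at 6.11 FPKM without glutamine, 5.79 and 5.55 FPKM without glucose and 8.66 and 8.63 FPKM in the controls. MRPS28 fell, with a log2 fold change of -0.76 ± 0.07 (adjusted p = 9.45e-05) without glutamine and -0.52 ± 0.06 (adjusted p = 0.000171) without glucose. Between the deprivations its value was -0.24 ± 0.07, a call lost with either control library or glucose-deprived replicate 1 left out. MRPS22 fell, with a log2 fold change of -0.53 ± 0.06 (adjusted p = 0.000198) without glutamine, and its call without glucose (-0.16 ± 0.05, adjusted p = 0.0212) was lost without control replicate 1 (adjusted p = 0.0663), control replicate 2 (0.142) and glucose-deprived replicate 2 (0.0952). MRPS27, an RNA-binding protein of the pentatricopeptide repeat family, had 16.4 FPKM without glutamine, 21.8 and 21.5 FPKM without glucose and 21.02 and 21.9 FPKM in control medium. MRPS35 had 26.7 FPKM without glutamine, 41.96 and 44.1 FPKM without glucose and 38.7 and 40.7 FPKM in control medium. In both genes the glutamine-deprived library alone was low. MRPS27 had -0.36 ± 0.05 (adjusted p = 0.000705) without glutamine, 0.01 ± 0.04 (adjusted p = 0.831) without glucose and -0.38 ± 0.05 (adjusted p = 0.000879) between the deprivations. MRPS35 had -0.55 ± 0.06 (adjusted p = 0.000189) without glutamine, 0.12 ± 0.05 (adjusted p = 0.0759) without glucose and -0.67 ± 0.06 (adjusted p = 0.00015) between the deprivations, the last the largest negative difference between the deprivations among small subunit members.

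Symbols and place in the ribosome do not match for 3 members. MRPS30, like MRPS18A, lies in the large subunit of human mitochondrial ribosome structures, and MRPS36 is known as a component of the 2-oxoglutarate dehydrogenase complex. MRPS30 had 11.8 FPKM without glutamine, 14.5 and 14.8 FPKM without glucose and 13.96 and 14.97 FPKM in control medium, with the glutamine-deprived library below the others. Its log2 fold change was -0.27 ± 0.06 (adjusted p = 0.00578) without glutamine and 0.02 ± 0.05 (adjusted p = 0.778) without glucose, and the call without glutamine was lost without control replicate 2 (adjusted p = 0.0529). MRPS36 had 7.27 FPKM without glutamine, 9.22 and 8.97 FPKM without glucose and 13.1 and 14.5 FPKM in control medium, ordered by medium. It fell, with a log2 fold change of -0.84 ± 0.08 (adjusted p = 0.000134) without glutamine and -0.55 ± 0.07 (adjusted p = 0.000315) without glucose. Between the deprivations its value was -0.29 ± 0.08, a call lost with any control or glucose-deprived library left out (-0.31 to -0.28).

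The subunits were then compared. Without glucose 39 of 49 large subunit members fell (79.6%) and 2 rose, with a median of -0.43. Of 29 small subunit members 21 fell (72.4%), with a median of -0.32. Among genes at 10 FPKM or more 52.5% fell without glucose, and among all genes tested 28.3%. Without glutamine 46 large (93.9%) and 27 small (93.1%) subunit members fell, with medians of -0.58 for the large and -0.53 for the small subunit. There 64.7% of genes at 10 FPKM or more and 26.4% of all genes tested fell. Between the deprivations 23 large subunit members were lower (46.9%) and 6 higher (12.2%), with a median of -0.14. Of the small subunit members 18 were lower (62.1%) and 1 higher (3.45%), with a median of -0.29. Among all genes tested 22.1% were lower and 22.5% higher. Among genes at 10 FPKM or more 43.8% were lower and 18.2% higher, with a median of -0.13. The lower share and the median of the large subunit were thus near those of genes at 10 FPKM or more. The large subunit median was thus the lower one against control and the higher one between the deprivations, and the difference of medians, large minus small, was -0.11 without glucose, -0.06 without glutamine and 0.15 between the deprivations. Without glucose-deprived replicate 1 the difference without glucose was -0.043, and without control replicate 1 the difference without glutamine was -0.026. With a trend on exon length and GC content removed, an alternative chosen after seeing the data, the difference was -0.15 without glucose, -0.014 without glutamine and 0.067 between the deprivations. No test was made between the subunits. Under the sum scaling the large subunit median between the deprivations was 0.06, and the small subunit median was -0.08.

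The summed FPKM showed the same contrast. Large subunit members summed to 994.2 without glutamine, 1093 and 1126 without glucose and 1525 and 1519 in the controls, and small subunit members to 550.3 without glutamine, 643.6 and 662.7 without glucose and 824.8 and 829.1 in the controls. The large to small ratio was 1.81 without glutamine, 1.70 in each glucose-deprived library and 1.85 and 1.83 in the controls. It was lowest without glucose and scaling cannot move it, since both sums come from the same library. With MRPS18A and MRPS30 counted in the large subunit and MRPS36 left out, the medians without glutamine were -0.58 for 51 large and -0.54 for 26 small subunit members, without glucose -0.43 for the large and -0.29 for the small, and between the deprivations -0.14 for the large and -0.27 for the small.

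By origin, the 27 members with counterparts in all ribosomes had medians of -0.59 without glutamine, -0.46 without glucose and -0.12 between the deprivations. The 19 with bacterial counterparts only had -0.63 without glutamine, -0.52 without glucose and -0.21 between the deprivations. The 31 classed as found only in mitochondria had -0.51 without glutamine, -0.23 without glucose and -0.27 between the deprivations. As drawn, this class includes MRPS18A and MRPS18B, although both are paralogs of bacterial ribosomal protein S18. That class had the median nearest 0 without glucose, where 21 of its 31 members fell (67.7%) and 1 rose. Of the 27 universal members 22 fell (81.5%) and 1 rose, and 16 of 19 bacterial ones fell (84.2%). Among genes at 10 FPKM or more 52.5% fell without glucose, and among all genes tested 28.3%. No test was made between classes.

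The 5 ribosomal proteins of the organelle that carry other symbols were set beside the members. All 5 fell without glutamine (median -0.54) and 3 without glucose (median -0.31), with 3 lower between the deprivations (median -0.27). Among genes at 10 FPKM or more 64.7%, 52.5% and 43.8% were lower in these comparisons, and among all genes tested 26.4%, 28.3% and 22.1%. The shares of the 5 proteins were 100%, 60% and 60%, and those of the members 93.6%, 76.9% and 52.6%. With the sum scaling, 0 of these were lower without glutamine (median -0.21), 2 without glucose (median -0.20) and 0 between the deprivations (median -0.061). CHCHD1, of the small subunit, had 9.64 FPKM without glutamine, 9.07 and 9.51 FPKM without glucose and 15.9 and 15.3 FPKM in control medium, and fell, with a log2 fold change of -0.64 ± 0.07 (adjusted p = 0.000259) without glutamine and -0.69 ± 0.06 (adjusted p = 6.05e-05) without glucose. DAP3, a GTP-binding small subunit protein, had 19.8 FPKM without glutamine, 27.1 and 25.9 FPKM without glucose and 25.4 and 25.1 FPKM in control medium and differed between the deprivations by -0.40 ± 0.05 (adjusted p = 0.000734).

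Of 29 assembly and rRNA modification factors tested, 17 fell and 1 rose without glutamine (median -0.27). Without glucose 13 fell and 8 rose (median -0.12), and between the deprivations 15 were lower and 1 higher (median -0.24). Among genes at 10 FPKM or more 64.7%, 52.5% and 43.8% were lower in these comparisons, and among all genes tested 26.4%, 28.3% and 22.1%. The shares of the 29 factors were 58.6%, 44.8% and 51.7%, near those of genes at 10 FPKM or more. Their median level was 8.99 FPKM. Without glucose 27.6% of the factors rose, near the 21.5% of genes at 10 FPKM or more and the 26.6% of all genes tested. Without glutamine 3.45% rose, against 10.7% and 24.7%. Between the deprivations 3.45% were higher, against 18.2% and 22.5%. Under the sum scaling 0 fell and 2 rose without glutamine (median 0.05), 4 fell and 4 rose without glucose (median -0.024), and 0 were lower and 1 higher between the deprivations (median -0.036). NOA1, a GTPase of small subunit assembly, had 24.4 FPKM without glutamine, 36.6 and 37.3 FPKM without glucose and 23.2 and 23.2 FPKM in control medium, a rise of 0.65 ± 0.04 (adjusted p = 1.52e-05) without glucose. MTG2, a GTPase of large subunit assembly, had 6.96 FPKM without glutamine, 4.06 and 4.17 FPKM without glucose and 7.75 and 7.54 FPKM in control medium. It fell, with a log2 fold change of -0.76 ± 0.05 (adjusted p = 1.79e-05) without glucose and was higher without glutamine than without glucose by 0.64 ± 0.06 (adjusted p = 0.0002). MTG1, another such GTPase, was the factor that rose without glutamine, by 0.28 ± 0.07 (adjusted p = 0.00817). The rRNA methyltransferase MRM3 had the largest fall there, -0.71 ± 0.06 (adjusted p = 8.90e-05), and RPUSD4, a pseudouridine synthase, the largest negative difference between the deprivations, -0.62 ± 0.06 (adjusted p = 0.000151).

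Of 16 translation and mRNA handling factors tested, 12 fell without glutamine (median -0.35), 9 fell and 3 rose without glucose (median -0.18), and 8 were lower between the deprivations (median -0.18). Among genes at 10 FPKM or more 64.7%, 52.5% and 43.8% were lower in these comparisons, and among all genes tested 26.4%, 28.3% and 22.1%. The shares of the 16 factors were 75%, 56.2% and 50%, not far above those of genes at 10 FPKM or more. With the sum scaling, 1 fell without glutamine (median -0.066), 3 fell and 2 rose without glucose (median -0.071), and 0 were lower between the deprivations (median 0.03). SLIRP, which with LRPPRC stabilises mitochondrial mRNAs, had 15.7 FPKM without glutamine, 17.4 and 18.3 FPKM without glucose and 36.03 and 35.2 FPKM in control medium. It fell, with a log2 fold change of -1.13 ± 0.06 (adjusted p = 2.24e-05) without glutamine and -0.96 ± 0.05 (adjusted p = 6.72e-06) without glucose. OXA1L, the insertase that receives nascent chains beside MRPL45, rose without glucose by 0.35 ± 0.05 (adjusted p = 0.000426), at 22.5 and 21.1 FPKM without glucose, against 16.7 and 16.9 FPKM in control medium. MTIF2, the initiation factor, differed between the deprivations by -0.50 ± 0.06 (adjusted p = 0.000355).

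Of 8 genes of mitochondrial DNA transcription and replication, 5 fell without glutamine (median -0.52) and 6 without glucose, where 1 rose (median -0.49), and 3 were lower between the deprivations (median -0.14). Among genes at 10 FPKM or more 64.7%, 52.5% and 43.8% were lower without glutamine, without glucose and between the deprivations. Of all genes tested 26.4%, 28.3% and 22.1% were lower. The shares of the 8 genes were 62.5%, 75% and 37.5%. With the sum scaling, 3 fell without glutamine (median -0.22), 4 fell and 0 rose without glucose (median -0.38), and 0 were lower between the deprivations (median 0.07). SSBP1, the single-stranded DNA-binding protein, fell, with a log2 fold change of -0.91 ± 0.05 (adjusted p = 2.53e-05) without glutamine. TWNK, the helicase, fell, with a log2 fold change of -0.71 ± 0.05 (adjusted p = 2.75e-05) without glucose, where POLG, the DNA polymerase, rose by 0.22 ± 0.05 (adjusted p = 0.00745). Of 8 regulators of mitochondrial genes tested, 2 fell and 1 rose without glutamine, and 3 fell and 2 rose without glucose, while between the deprivations 4 were lower and 1 higher. The shares of regulators that were lower were 25% without glutamine, 37.5% without glucose and 50% between the deprivations. Among genes at 10 FPKM or more these shares were 64.7%, 52.5% and 43.8%, and among all genes tested 26.4%, 28.3% and 22.1%. The lower shares of regulators against control were thus nearer those of all genes tested. Regulators that rose were 12.5% without glutamine and 25% without glucose, and 12.5% were higher between the deprivations. Among genes at 10 FPKM or more 10.7%, 21.5% and 18.2% were higher, and among all genes tested 24.7%, 26.6% and 22.5%. Under the sum scaling 0 fell and 1 rose without glutamine, 0 passed without glucose, and 0 were lower and 1 higher between the deprivations. GABPA, whose link to the members was not tested, had 11.1 FPKM without glutamine, 12.7 and 13.1 FPKM without glucose and 17.3 and 17.4 FPKM in control medium. It fell, with a log2 fold change of -0.60 ± 0.05 (adjusted p = 7.80e-05) without glutamine and -0.41 ± 0.04 (adjusted p = 0.000141) without glucose. The coactivator PPARGC1B rose by 0.27 ± 0.05 (adjusted p = 0.00371) without glutamine and PPRC1 by 0.24 ± 0.04 (adjusted p = 0.00138) without glucose. YY1 had the largest negative difference between the deprivations in this list, -0.26 ± 0.05 (adjusted p = 0.00622).

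The mitochondrial ribosome is built on rRNAs and translates mRNAs that the organelle itself transcribes. Of 13 mitochondrially encoded mRNAs, 10 rose and 1 fell without glutamine (median 1.76), 2 rose and 5 fell without glucose (median -0.17), and 11 were higher between the deprivations (median 2.04). Among genes at 10 FPKM or more 10.7%, 21.5% and 18.2% were higher in these comparisons, and among all genes tested 24.7%, 26.6% and 22.5%. The shares of the 13 mRNAs were 76.9%, 15.4% and 84.6%. Without glucose 38.5% of them fell, against 52.5% of genes at 10 FPKM or more and 28.3% of all genes. MT-CYB had 422 FPKM without glutamine, 70.7 and 58.6 FPKM without glucose and 74.6 and 70.03 FPKM in control medium, a rise of 2.53 ± 0.10 (adjusted p = 1.76e-05) without glutamine. MT-CO3 had 1869 FPKM without glutamine, 912 and 869 FPKM without glucose and 2076 and 1953 FPKM in control medium and fell, with a log2 fold change of -1.18 ± 0.05 (adjusted p = 5.62e-06) without glucose, where MT-CO1 rose by 0.51 ± 0.06 (adjusted p = 0.000332). MT-ND6 fell, with a log2 fold change of -0.84 ± 0.13 (adjusted p = 0.000974) without glutamine. MT-RNR1, the small subunit rRNA, had 476 FPKM without glutamine, 192 and 177 FPKM without glucose and 93.9 and 87.9 FPKM in control medium, and MT-RNR2, the large subunit rRNA, 1351 FPKM without glutamine, 529 and 469 FPKM without glucose and 209.5 and 184 FPKM in control medium. Both rRNAs were called higher in all 3 comparisons. The libraries were depleted of rRNA and nuclear copies of mitochondrial DNA can share these reads, and the part of either in these values was not tested.

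For cytosolic ribosomal proteins, which share no gene with the mitochondrial ones, the counts without glucose ran the other way. Of 77 tested, 68 fell without glutamine (median -0.41), 51 rose and 1 fell without glucose (median 0.21), and all 77 were lower between the deprivations (median -0.61). Among genes at 10 FPKM or more 64.7% fell without glutamine, 21.5% rose without glucose and 43.8% were lower between the deprivations. Among all genes tested these shares were 26.4%, 26.6% and 22.1%, and among the 77 genes 88.3%, 66.2% and 100%. The directions of the medians of the 77 genes were the same under the 3 other scalings. Under the sum scaling 1 fell without glutamine (median -0.083), 17 rose without glucose (median 0.32) and 11 were lower between the deprivations (median -0.40). Their FPKM summed to 18840 without glutamine, 27510 and 29410 without glucose and 24720 and 23620 in the controls. The cytosolic to mitochondrial ratio of sums was 12.2 without glutamine, 15.8 and 16.5 without glucose and 10.5 and 10.1 in the controls, so it was highest in both glucose-deprived libraries.

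**Figure D4:**
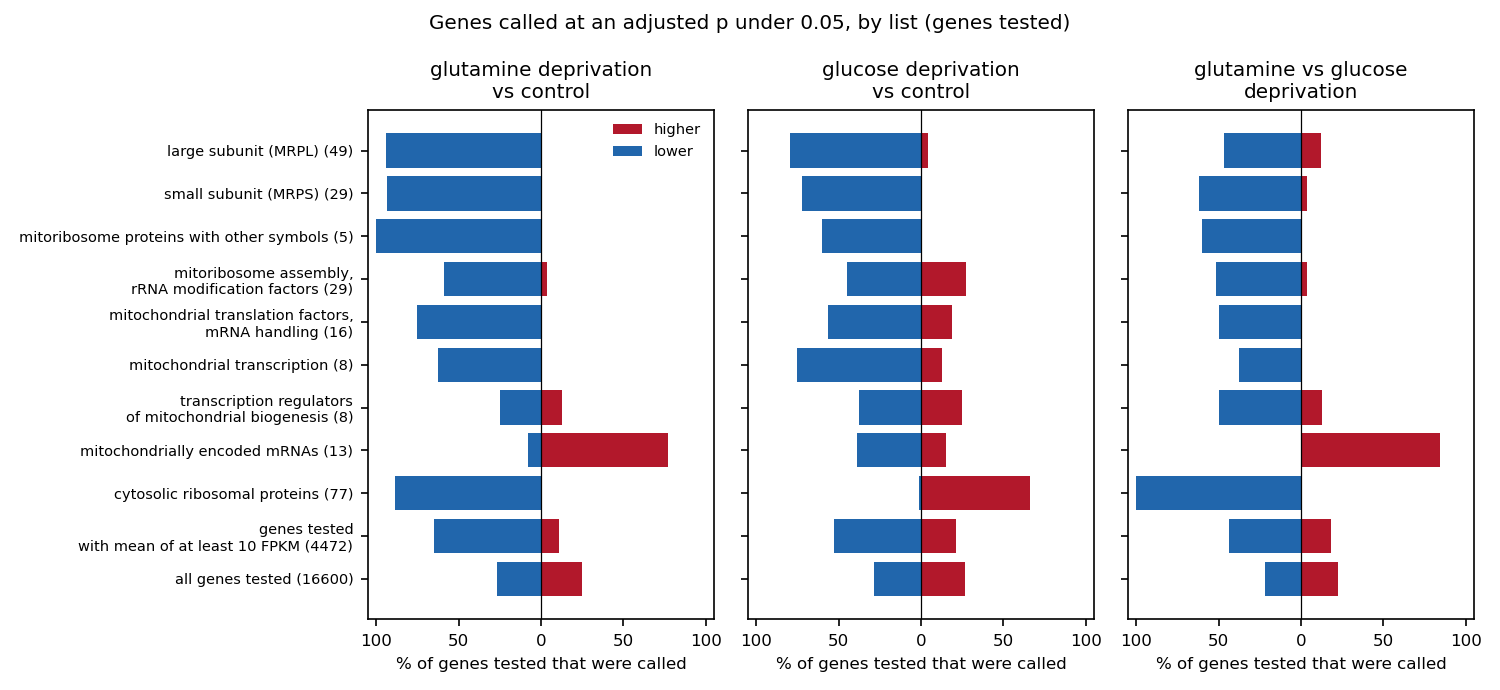
Share of tested genes (x axis, %) that were lower (left of 0) or higher (right of 0) at a limma adjusted p under 0.05 in each of 3 comparisons, by gene list, with the number of genes tested in parentheses. Mitochondrial ribosomal proteins are mostly lower against control in both deprivations, while 66.2% of cytosolic ribosomal proteins are higher without glucose and 76.9% of mitochondrially encoded mRNAs are higher without glutamine.

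Members with the ETS letters in their promoter had medians of -0.60 without glutamine and -0.43 without glucose (29 members), against -0.52 without glutamine and -0.32 without glucose in the 40 members that lack them. Members with the YY1 letters had medians of -0.51 without glutamine and -0.25 without glucose (13 members), against -0.54 without glutamine and -0.34 without glucose in the 56 members that lack them. Members with the NRF1 letters had medians of -0.58 without glutamine and -0.37 without glucose (8 members), against -0.53 without glutamine and -0.33 without glucose in the 61 members that lack them. Members with the E-box letters had medians of -0.54 without glutamine and -0.57 without glucose (6 members), against -0.53 without glutamine and -0.33 without glucose in the 63 members that lack them. Between the deprivations the median was -0.25 with and -0.17 without the ETS letters, -0.22 with and -0.19 without the YY1 letters, -0.075 with and -0.205 without the NRF1 letters, and -0.055 with and -0.205 without the E-box letters. No test was made between members with and without a motif. Annotated exons of 41 members overlap another gene, 29 of them on the opposite strand, and 26 over more than 10% of their exon length. Names of 76 pseudogenes match 35 members, and 5 of these pseudogenes reached 1 FPKM in some library, the highest at 8.52 FPKM.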

How the data were processed

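RNA of 95D cells was sequenced after rRNA depletion, per the labels' protocols. As deposited by the authors, the values appear to be FPKM. The submitters' processing notes name HISAT2 2.0.5, StringTie and hg38. No header names the unit, which was inferred from low values of single-exon genes that fall on whole reads (94.97% to 95.65% within 0.05 reads). Annotation and strandedness are not given in the sources used here. One table has 1 value column headed as another sample's condition, which was not used, so 5 of 6 labelled libraries entered.

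FPKM were divided by a factor per library (trimmed mean of log ratios, 30% of ratios and 5% of abundances trimmed at each end, genes averaging at least 1 FPKM): 1.08 for glutamine deprivation, 1.01 and 0.979 for glucose deprivation, 0.960 and 0.971 for the controls. Genes with at least 1 FPKM in 1 or more libraries were fitted together with limma (version 3.58.1, R 4.3.3), as log2(FPKM + 1), a scale that understates changes of low genes, with a coefficient per group and variances moderated over a trend on inferred reads, which use exon lengths of GENCODE release 29. Tests were two-sided, and p-values were adjusted by Benjamini-Hochberg over 16600 genes, with a threshold of 0.05. The script was checked on simulated data. Alternatives covered the pseudocount (0.1), the filter (none, 5 FPKM), 3 other scalings, the variance trend, limma's robust option, a replicate block, each library left out and the place of proteins in structures.

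The members and lists were chosen with earlier results of these data known. Named members are the 5 called ones with the largest change each way in each comparison and 16 picked for their role or paralogy; in other lists, the called gene with the largest change each way.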

Additional observations from a re-analysis of the deposited data

How the results depend on the processing

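Depth and replication limit these results: 2 residual degrees of freedom carry every test, the glutamine-deprived group has 1 library, and the unit, the depth and the exon lengths behind the variance trend are inferred. Members kept their direction as a group against control under every alternative run, and 17 to 75 of them passed as lower without glutamine and 34 to 61 without glucose. The direction of the large subunit between the deprivations turned under 1 scaling. For each value below the cause was not tested.

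With a pseudocount of 0.1 the large subunit median was -0.62 without glutamine and -0.46 without glucose, the small subunit median was -0.57 without glutamine, -0.33 without glucose and -0.30 between the deprivations and the difference of medians, large minus small, was -0.13 without glucose and 0.16 between the deprivations. With no filter the number of members higher was 1 without glucose and 2 between the deprivations and the number of members lower was 25 between the deprivations. With values as deposited the number of members higher was 15 between the deprivations, the number of members lower was 23 between the deprivations, the large subunit median was -0.44 without glutamine, -0.39 without glucose and -0.022 between the deprivations and the small subunit median was -0.38 without glutamine, -0.28 without glucose and -0.18 between the deprivations. Single members then turned sign, at 0.088 for MRPL10, 0.035 for MRPL34 and 0.007 for MRPL45 without glutamine, and 0.002 for MRPL51, 0.069 for MRPL57 and 0.055 for MRPS18A between the deprivations. With upper quartile scaling the number of members higher was 6 without glucose, the large subunit median was -0.46 without glutamine, -0.36 without glucose and -0.087 between the deprivations and the small subunit median was -0.41 without glutamine, -0.24 without glucose and -0.24 between the deprivations. Single members then turned sign, at 0.058 for MRPL10 and 0.004 for MRPL34 without glutamine, and 0.008 for MRPL57 between the deprivations. With the sum scaling the number of members higher was 4 between the deprivations, the number of members lower was 17 without glutamine, 34 without glucose and 5 between the deprivations, the large subunit median was -0.28 without glutamine, -0.32 without glucose and 0.063 between the deprivations and the small subunit median was -0.22 without glutamine, -0.21 without glucose and -0.08 between the deprivations. Single members then turned sign, at 0.25 for MRPL10, 0.20 for MRPL34, 0.087 for MRPL37, 0.17 for MRPL45 and 0.042 for MRPS30 without glutamine, 0.029 for MRPL15, 0.021 for MRPL32 and 0.017 for MRPS18B without glucose, and 0.005 for MRPL11, 0.10 for MRPL51, 0.16 for MRPL57 and 0.15 for MRPS18A between the deprivations. With a trend on exon length and GC content removed, an alternative chosen after seeing the data, the number of members higher was 4 without glucose, the large subunit median was -0.47 without glutamine, -0.38 without glucose and -0.11 between the deprivations, the small subunit median was -0.45 without glutamine, -0.23 without glucose and -0.18 between the deprivations and the difference of medians, large minus small, was -0.014 without glutamine, -0.15 without glucose and 0.067 between the deprivations. Single members then turned sign, at 0.01 for MRPL10 without glutamine, 0.028 for MRPL32 without glucose, and 0.033 for MRPL57 between the deprivations. With subunits as placed in structures the small subunit median was -0.54 without glutamine, -0.29 without glucose and -0.27 between the deprivations and the difference of medians, large minus small, was -0.034 without glutamine, -0.14 without glucose and 0.13 between the deprivations. With a variance trend on the mean level the number of members higher was 4 between the deprivations. With the replicate block the small subunit median was -0.26 between the deprivations and the difference of medians, large minus small, was 0.12 between the deprivations. Single members then turned sign or lost it, at -0.001 for MRPL37 and 0 for MRPL57 between the deprivations.

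The replicate numbers of the control and glucose-deprived libraries did not deviate together (correlation of deviations -0.022), so they were not taken to pair the samples; the replicate block left 60 members lower without glucose, 73 without glutamine and 36 between the deprivations. With 1 library left out at a time, the number of members higher between the deprivations ranged from 4 to 6, the lower ones from 31 to 37, those lower without glutamine from 70 to 75 and those lower without glucose from 51 to 61. The large subunit median ranged from -0.42 to -0.38 without glucose and -0.18 to -0.14 between the deprivations, the small subunit median from -0.57 to -0.53 without glutamine and -0.34 to -0.29 without glucose, and the difference of medians from -0.056 to -0.026 without glutamine, -0.14 to -0.043 without glucose and 0.10 to 0.15 between the deprivations. None of the members that turned sign in these runs had passed the test in that comparison: MRPL10 from -0.16 to 0.003 without glutamine, MRPS27 from -0.029 to 0.03 without glucose, MRPS30 from -0.041 to 0.053 without glucose, MRPL37 from -0.01 to 0.008 between the deprivations, MRPL57 from -0.13 to 0.032 between the deprivations and MRPS18A from -0.14 to 0.006 between the deprivations. Of 90 single-member values, 39 lost their call under the sum scaling, 17 with no filter, 10 with values as deposited and at most 9 under any other alternative.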
